A study of Homo sapiens with 6 samples.

Results

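The nuclear genes for respiratory complexes II to V were followed across 6 RNA sequencing libraries of the human ovarian cancer cell line ES2. They were taken from the deposited table by symbol (SDHA to SDHD, UQCR, UQCC, CYC1, COX followed by a number, ATP5F1, ATP5M and ATP5P), as rows with no hyphen in the symbol and a protein-coding transcript. The rule gave 59 of the 33706 genes in the table, of which 4 belong to complex II, 16 to complex III, 22 to complex IV and 17 to complex V. By role, 43 encode subunits, 15 encode assembly factors and 1, COX7A2L, encodes a factor that joins complexes III and IV. The same symbols matched another 48 rows that were not taken, 43 of them pseudogenes.

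Each group held 1 library after 7 days of culture. The groups were R, TR (T with R), GR (G with R), T, G (called G4 in the labels) and a control that received no drug. All carried the wild-type line. The study used T-oligo, DNA with the sequence of the telomere overhang, and RHPS4, a small molecule that binds G-quadruplexes. T and R are not spelled out by the labels and are kept as letters, and TR and GR are read here as combinations. The titles name ES2 for every library, while the source names of R, TR, GR and G name SKOV3, another ovarian cancer line. ERBB2, which SKOV3 carries in extra copies, lay between 0.146 and 0.721 FPKM (fragments per kilobase, scaled to library depth) in the 6 libraries, and CDKN2A, which SKOV3 has lost, between 74.4 and 146 FPKM.

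Respiratory complexes II, III and IV pass electrons to oxygen in the inner mitochondrial membrane, and complex V uses the proton gradient built by complexes I, III and IV to make ATP. Complex II is encoded wholly in the nucleus. Complexes III, IV and V also need subunits from mitochondrial DNA. These form the redox core of complex IV, cytochrome b of complex III and part of the membrane sector of complex V. Assembly factors insert haem and copper, hold partly built intermediates or help make the mitochondrially encoded subunits, and do not stay in the finished enzyme. NRF1 and GABP, a factor of the ETS family, are known regulators of many of these genes in mammals.

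Library totals ran from 73213048 to 83976498 counts. The 59 genes took 0.693% of counts in R, 0.670% in TR and 0.547% in GR, against 0.598% in Control, 0.475% in T and 0.458% in G. The 95% Wilson intervals of these shares, which cover counting error only, ran from 0.691% to 0.695% in R and from 0.596% to 0.599% in Control. Every R-containing library lay above its partner without R, while GR lay below Control. Mitochondrially encoded genes took 0.351%, 0.474% and 0.893% of counts in R, TR and GR, against 6.98%, 5.44% and 6.17% in Control, T and G. With those genes left out of the totals, the shares were 0.695%, 0.673% and 0.551% in R, TR and GR, against 0.642%, 0.503% and 0.488% in Control, T and G. In bulk RNA, fewer cells expressing a gene and less RNA per cell cannot be told apart.

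The labelled epithelial identity was only partly seen in the markers. EPCAM and CDH1 were at most 0.0563 FPKM in any library, while KRT8, KRT18 and VIM were present. The 7 epithelial markers had summed levels of 149, 221 and 282 FPKM in R, TR and GR, against 106, 78.8 and 143 FPKM in Control, T and G, nearly all of it KRT18 and KRT8. PAX8 and WT1 went the other way at low levels. PAX8 stood at 0.0419, 0.0526 and 0.0404 FPKM in R, TR and GR, against 0.198, 0.183 and 0.180 FPKM in Control, T and G. In the same order WT1 stood at 0, 0.0262 and 0.0447 FPKM, against 0.252, 0.148 and 0.111 FPKM. KRT19 was at most 0.110 FPKM in any library. The 3 mesenchymal markers had summed levels of 2183, 1800 and 1392 FPKM in R, TR and GR, against 1566, 1640 and 1222 FPKM in Control, T and G. The 3 leukocyte markers found in the table summed to at most 0.685 FPKM and the 4 muscle markers to at most 0.189 FPKM, and the endothelial sum, almost all CDH5, lay between 5.78 and 19.3 FPKM. CDH5 stood at 5.75, 9.58 and 10.3 FPKM in R, TR and GR, against 19.2, 12.9 and 15.0 FPKM in Control, T and G. The part of the keratin and mesenchymal genes in the results for R was not tested.

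Promoter sequence is shown for the members at the top and the bottom of the response to R, because NRF1 and GABP are known regulators of many of these genes. The windows come from RefSeq on GRCh38.p14, 250 bases before to 50 after the most upstream start of each gene, and 48 of the 59 members had one. The core of the NRF1 motif was searched exactly and with up to 1 mismatch, and the ETS core was CCGGAAGT. In the stretches from COX6A1, SDHA and UQCC1, capitals mark matches to the NRF1 core with 1 mismatch. In those from COX8A and UQCRQ, capitals mark the ETS core, which lies on the opposite strand in COX8A.
COX6A1, chr12:120437883-120437962, plus strand: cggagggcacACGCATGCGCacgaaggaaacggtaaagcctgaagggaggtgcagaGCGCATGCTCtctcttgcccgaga
SDHA, chr5:218150-218300, plus strand: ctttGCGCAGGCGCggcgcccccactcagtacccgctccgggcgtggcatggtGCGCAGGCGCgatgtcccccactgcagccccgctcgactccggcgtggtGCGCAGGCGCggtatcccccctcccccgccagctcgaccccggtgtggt
COX8A, chr11:63974560-63974619, plus strand: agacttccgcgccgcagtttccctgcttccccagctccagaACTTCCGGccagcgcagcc
UQCRQ, chr5:132866562-132866621, plus strand: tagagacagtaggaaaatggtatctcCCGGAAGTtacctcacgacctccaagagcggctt
UQCC1, chr20:35412044-35412093, minus strand: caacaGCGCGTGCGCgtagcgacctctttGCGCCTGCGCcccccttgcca
COX6A1, SDHA, COX8A and UQCRQ had the highest R coefficients among members with a mean of at least 5 FPKM, and UQCC1 the lowest. NRF1-like matches stood in the windows of COX6A1 and SDHA at the top and of UQCC1 at the bottom, and those of COX8A and UQCRQ held none.

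Across the 48 member promoters, 21 (43.8%) held the NRF1 core with up to 1 mismatch on either strand, against 15.7% of the promoters of 9058 expressed protein-coding genes and 7.95% of all 27305 promoters. The exact core was in 4 (8.33%) member promoters, those of ATP5F1C, COX17, COX18 and SDHD, against 2.51% of expressed and 1.37% of all promoters. The ETS core was in 22.9% of member promoters, against 9.56% of expressed and 4.41% of all promoters. The YY1 motif AAGATGGCG was in 10.4%, against 4.23% of expressed and 1.82% of all promoters, and the cAMP response element TGACGTCA in 6.25%, against 3.39% and 1.97%. The NFY motif CCAAT was in 39.6% of member promoters, against 37.3% of expressed and 35.7% of all promoters, and the SP1 motif GGGCGG in 56.2%, against 71.7% and 44.5%. None of these motifs contains another. A G-quadruplex motif, 4 runs of at least 3 G with loops of 1 to 7 bases on either strand, which can overlap the SP1 motif, was in 22.9% of member promoters, against 33.7% of expressed and 23.9% of all promoters. Members with and without the NRF1-like core had median R coefficients of 0.62 (20 genes) and 0.57 (27 genes) on the log2 scale, and members with and without the G-quadruplex motif 0.63 (10 genes) and 0.57 (37 genes). COX8C, whose promoter held both, had no coefficient.

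**Figure D1:**
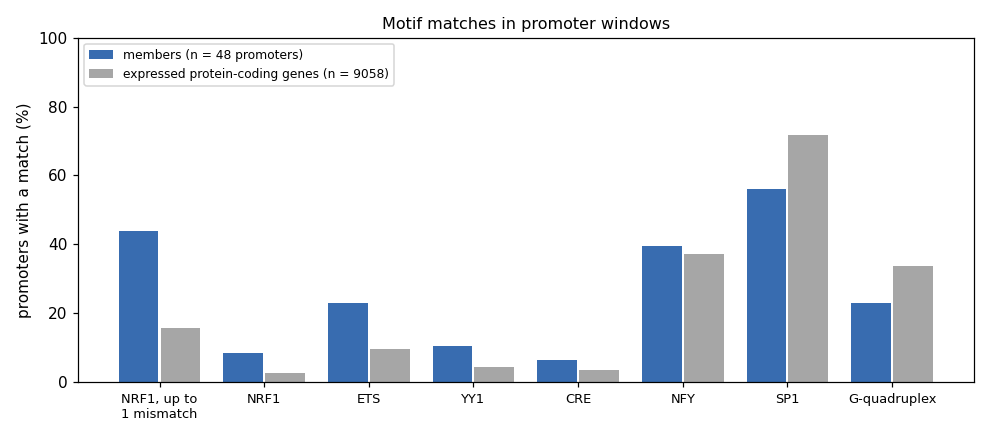
Share of promoter windows (%, y axis) with a match to each motif (x axis), for the 48 member promoters (blue) and the promoters of 9058 expressed protein-coding genes (grey). The NRF1, ETS, YY1 and cAMP response element bars are higher for the members, and the SP1 and G-quadruplex bars are lower.

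R was compared with its absence across the 3 backgrounds (T, G and neither). COX6A1, a subunit of complex IV (cytochrome c oxidase), rose with R and was the only member called by edgeR. Most other members also had coefficients above 0 without passing the test. The exceptions were assembly factors that act on complexes III and IV and COX6B2, a subunit that was nearly absent. The model was edgeR's additive quasi-likelihood fit of background and R on the counts of all 6 libraries, with Benjamini-Hochberg adjustment over 20922 genes and a threshold of 0.05. Nothing in the labels makes these separate cultures, and no group was repeated. The p-values therefore rest on how far the 6 libraries depart from an R effect that is equal in the 3 backgrounds. That departure can hold a true difference between backgrounds as well as technical variation, and the fit cannot separate these.

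Of the 59 members 58 entered the fit, all but COX8C. In that fit 1 of 58 was called higher and 0 lower, against 1.19% and 1.31% of all genes tested. The R coefficient was above 0 in 52 of 58 members, against 47.0% of all genes. At an unadjusted p under 0.05, 29 of 58 members were higher and 0 lower, against 12.6% and 14.6% of all genes. The count higher depended on single libraries and on the source names: it was 10 without T and 9 without TR, against 6.82% and 6.25% of all genes, and 0 with the source name line as a term, against 1.63%. Leaving out T or TR takes the same R pair out of the fit of R. With the line term the R coefficient rests on GR against G alone. The source names differ within the other R pairs, so that fit does not separate cell line from R. With all 6 libraries and no line term, the median coefficient was 0.58 for the members and -0.06 for all genes, on the log2 scale. By complex the medians were 0.71 for complex II, 0.45 for complex III, 0.62 for complex IV and 0.60 for complex V. Subunits had a median of 0.61, with 41 of 42 above 0, and assembly factors a median of 0.36, with 10 of 15 above 0. The difference between subunits and assembly factors was not tested. With 2 residual degrees of freedom, a member that did not pass is not shown to have kept its level.

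Scaling and tool set how many members passed. DESeq2 called 21 of 58 members higher and 0 lower, against 8.91% of all genes higher. With library totals in place of TMM scaling (chosen after seeing the data), 0 members were called, against 0.511% of all genes higher and 1.01% lower. There 49 of 58 coefficients stayed above 0, with a median of 0.38. At an unadjusted edgeR p under 0.05, 18 members were higher and 2 lower with library totals, against 7.49% and 19.6% of all genes. That scaling moved the median of all genes to -0.26.

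**Figure D2:**
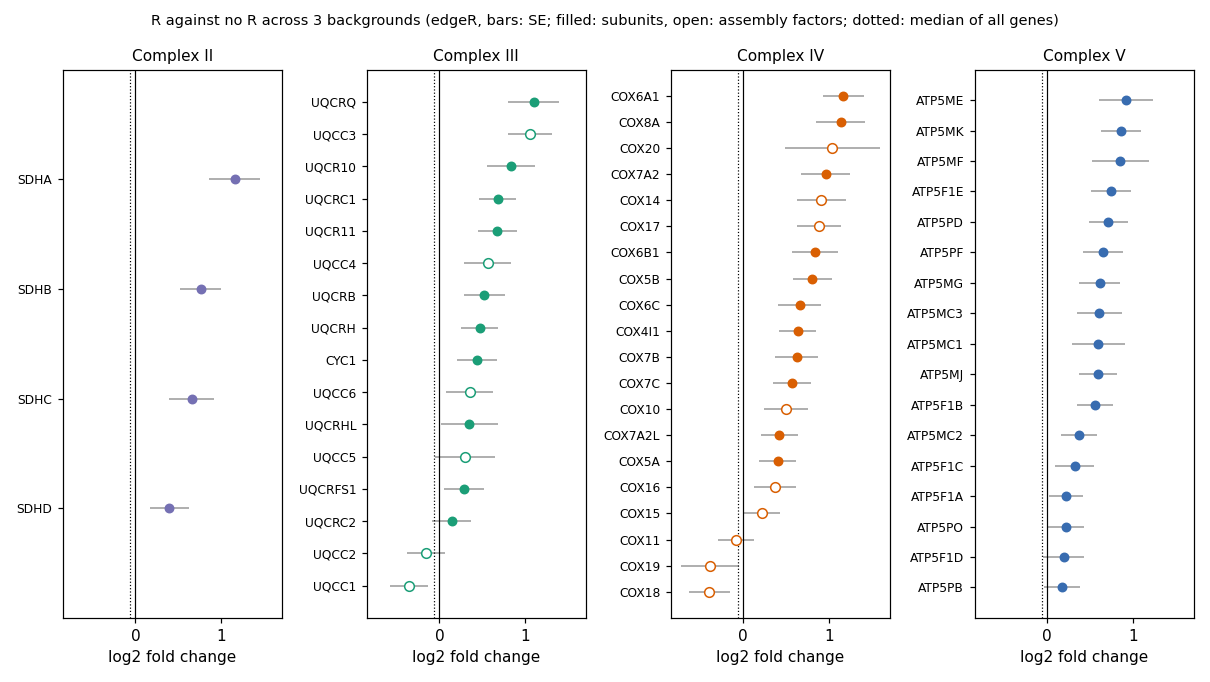
R coefficients (log2 fold change, x axis) of the members by complex from edgeR, with bars of 1 SE. Filled points are subunits (and COX7A2L), open points assembly factors, and the dotted line is the median of all genes at -0.06; COX6B2, at -1.04 with near 0 FPKM, is not drawn. All filled points lie right of the line, and the points left of 0 are open.

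Complex II oxidises succinate and feeds its electrons to ubiquinone. All 4 genes had R coefficients above 0, and 0 of 4 passed the test. SDHA (chr5:218303-256682, plus strand), the flavoprotein that oxidises succinate, stood at 33.3, 31.5 and 27.5 FPKM in R, TR and GR, against 23.3, 9.83 and 16.9 FPKM in Control, T and G. All 3 libraries with R lay above all 3 without R, and T was the lowest. Its R coefficient was 1.16 (SE 0.30), with a Benjamini-Hochberg adjusted p of 0.0663 from edgeR. SDHA overlaps ENSG00000286001 on the same strand, a gene with 876, 4553 and 1206 counts in R, TR and GR, against 339, 223 and 141 counts in Control, T and G. The counts of that gene came to 6.87% of those of SDHA over the 6 libraries. SDHA also has pseudogene copies, so its values are uncertain.

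SDHB, the iron-sulphur subunit, stood at 34.1, 32.3 and 28.0 FPKM in R, TR and GR, against 26.2, 17.8 and 20.7 FPKM in Control, T and G. Its groups did not overlap either, and its coefficient was 0.76 (SE 0.24). The membrane anchors followed the same order less fully. SDHC stood at 55.4, 63.9 and 54.0 FPKM in R, TR and GR, against 55.6, 33.8 and 39.5 FPKM in Control, T and G. SDHD stood at 39.2, 34.8 and 29.5 FPKM in R, TR and GR, against 31.8, 27.3 and 31.1 FPKM in Control, T and G. For both anchors the groups overlapped, through Control in SDHC and through GR in SDHD.

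**Figure D3:**
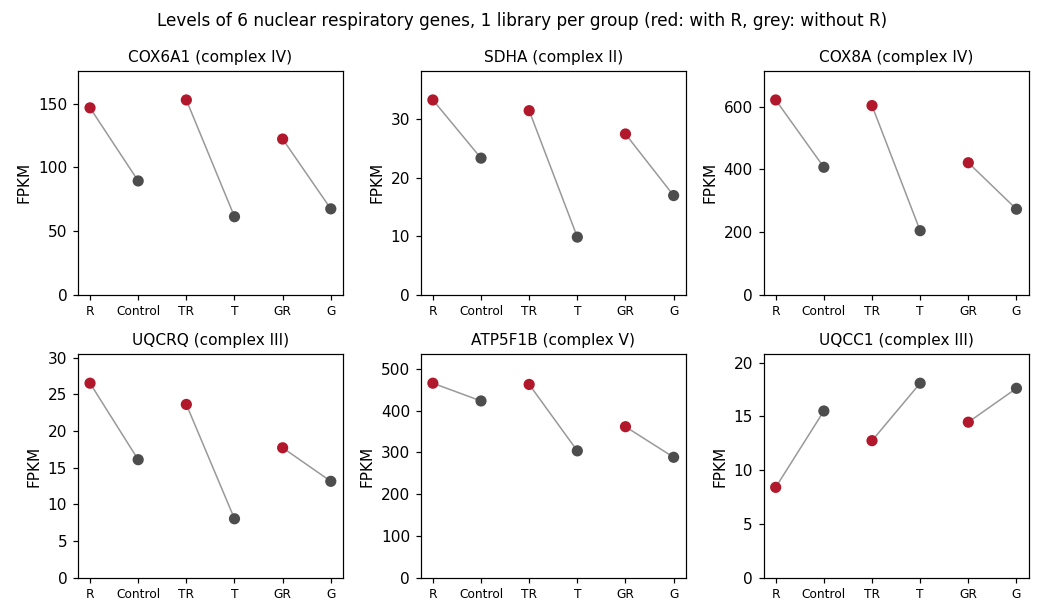
FPKM (y axis, from 0) of 6 members in the 6 libraries, with each R library (red) left of its partner without R (grey) and a line joining the pair; each point is 1 library. Red lies above grey in every pair for COX6A1, SDHA, COX8A, UQCRQ and ATP5F1B, and below it in every pair for UQCC1.

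Complex III passes electrons from ubiquinol to cytochrome c. Its 10 subunit genes all had R coefficients above 0, with a median of 0.50, and 0 of 10 passed the test. UQCRQ (chr5:132866630-132868847, plus strand), a small subunit beside cytochrome b, stood at 26.5, 23.6 and 17.7 FPKM in R, TR and GR, against 16.1, 8.04 and 13.1 FPKM in Control, T and G. Its groups did not overlap, and T was again the lowest. Its coefficient was 1.10 (SE 0.30), with an adjusted p of 0.0719 from edgeR. UQCR10, another small subunit, stood at 44.1, 44.0 and 36.3 FPKM in R, TR and GR, against 35.9, 19.1 and 27.3 FPKM in Control, T and G. UQCRC1, a core protein of the matrix arm, stood at 32.9, 36.0 and 29.8 FPKM in R, TR and GR, against 27.3, 23.2 and 20.6 FPKM in Control, T and G. In both, and in UQCR11, the 3 libraries with R lay above the 3 without R.

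The groups overlapped in the nuclear redox subunits of complex III. CYC1, cytochrome c1, stood at 102, 123 and 105 FPKM in R, TR and GR, against 111, 87.4 and 82.6 FPKM in Control, T and G. UQCRFS1, the Rieske iron-sulphur protein, stood at 17.7, 18.9 and 19.5 FPKM in R, TR and GR, against 22.0, 15.6 and 15.9 FPKM in Control, T and G. In both genes Control lay within or above the libraries with R. UQCRC2, the other core protein, stood at 42.2, 34.1 and 31.3 FPKM in R, TR and GR, against 34.0, 44.1 and 33.9 FPKM in Control, T and G. Its coefficient of 0.14 (SE 0.23) was the lowest of the complex III subunits and turned to -0.056 with library totals, to -0.036 with the source name line as a term, to -0.038 without Control and to -0.039 without R. UQCRB, near the ubiquinone site, and UQCRH, the hinge protein that binds cytochrome c1, had coefficients of 0.53 and 0.47. UQCRHL, a near copy of UQCRH at 0.911 to 1.20 FPKM, may share reads with it, so both are uncertain.

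The 6 complex III assembly factors differed in direction, and 0 of 6 passed the test. UQCC3, which stabilises newly made cytochrome b, stood at 4.16, 5.85 and 4.64 FPKM in R, TR and GR, against 2.43, 3.13 and 2.50 FPKM in Control, T and G. UQCC1 (chr20:35302566-35411976, minus strand), which acts with UQCC2 in the making of cytochrome b, stood at 8.41, 12.8 and 14.5 FPKM in R, TR and GR, against 15.5, 18.1 and 17.6 FPKM in Control, T and G. UQCC2 stood at 4.01, 4.35 and 4.57 FPKM in R, TR and GR, against 5.00, 6.09 and 5.51 FPKM in Control, T and G. The libraries with R lay wholly above the others in UQCC3 and wholly below them in UQCC1 and UQCC2. The coefficients were 1.06 (SE 0.26, edgeR adjusted p 0.0608) for UQCC3, -0.35 (SE 0.22, adjusted p 0.333) for UQCC1 and -0.16 (SE 0.22, adjusted p 0.691) for UQCC2. UQCC4, UQCC5 and UQCC6 lay between 0.30 and 0.56.

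Complex IV reduces oxygen to water. COX6A1 (chr12:120438090-120440730, plus strand), the isoform of subunit 6A in most tissues outside muscle, stood at 147, 153 and 122 FPKM in R, TR and GR, against 89.3, 61.2 and 67.3 FPKM in Control, T and G. The lowest library with R was above the highest without it. Its R coefficient was 1.17 (SE 0.24), with an edgeR adjusted p of 0.0487. The log2 ratio of FPKM + 1, a scale that understates changes of low genes, was 0.71, 1.31 and 0.85 in the R, TR and GR libraries against Control, T and G, a mean of 0.96 ± 0.31 (SD, n = 3 pairs). The call lies close to the threshold. Its edgeR adjusted p was 0.0587 with library totals, 0.208 with no filter on low counts and 0.0647 without the background term. With the source name line as a term, where R rests on GR against G alone, COX6A1 did not pass. Leaving out 1 library gave 0.0252 without G and 0.0332 without GR. The values were 0.0909 without Control, 0.162 without T, 0.0657 without R and 0.175 without TR. COX6A1 overlaps ENSG00000111780, which had 0 to 3 counts in each library.

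COX8A (chr11:63974620-63976543, plus strand), the ubiquitous isoform of the smallest subunit, had the highest mean level of all members at 422 FPKM. It stood at 622, 604 and 421 FPKM in R, TR and GR, against 407, 204 and 273 FPKM in Control, T and G. The groups did not overlap, with GR just above Control. Its coefficient was 1.13 (SE 0.28), with an edgeR adjusted p of 0.0633. Its FPKM level depends on the authors' length for the gene, which is 526 bases.

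All 10 complex IV subunits that reached 1 FPKM had a ratio above 0 in each of the 3 R pairs. COX7A2, the subunit 7A isoform of most tissues, stood at 37.0, 36.0 and 23.6 FPKM in R, TR and GR, against 26.0, 13.7 and 18.1 FPKM in Control, T and G. COX6B1, which faces the intermembrane space, stood at 43.0, 40.6 and 26.5 FPKM in R, TR and GR, against 32.1, 18.3 and 21.1 FPKM in Control, T and G. In both, GR lay between Control and the other 2 libraries without R. COX5B stood at 46.5, 49.9 and 36.2 FPKM in R, TR and GR, against 35.0, 28.9 and 23.7 FPKM in Control, T and G. COX4I1, the common isoform of subunit 4, through which ATP is known to inhibit the enzyme, stood at 71.6, 71.3 and 56.4 FPKM in R, TR and GR, against 55.3, 48.3 and 44.1 FPKM in Control, T and G. In COX5B, COX4I1 and COX7C the groups did not overlap. COX5A, which pairs with COX4I1, had the lowest coefficient of the 10, at 0.40 (SE 0.22), and COX6C, COX7B and COX7C lay between 0.57 and 0.66.

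The testis isoforms were near 0. COX6B2 was at most 0.0480 FPKM in any library, with a coefficient of -1.04 (SE 1.47), and COX8C at most 0.0688 FPKM. COX4I2, COX6A2, COX7A1 and COX7B2 were not analysed here. COX7A2L, which links complexes III and IV, stood at 13.1, 12.3 and 10.1 FPKM in R, TR and GR, against 10.3, 13.2 and 7.66 FPKM in Control, T and G. Its groups overlapped, and its coefficient was 0.42 (SE 0.22).

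Among the 9 complex IV assembly factors, 6 coefficients lay above 0 and 3 below, and 0 of 9 passed the test. COX17, the copper chaperone, stood at 7.92, 6.08 and 5.11 FPKM in R, TR and GR, against 5.28, 3.44 and 3.27 FPKM in Control, T and G. COX14, which binds newly made MT-CO1, stood at 9.02, 9.60 and 6.77 FPKM in R, TR and GR, against 5.30, 4.97 and 5.12 FPKM in Control, T and G. COX18, which inserts MT-CO2 into the membrane, stood at 1.68, 1.39 and 1.33 FPKM in R, TR and GR, against 2.76, 2.25 and 1.76 FPKM in Control, T and G. The libraries with R lay wholly above the others in COX14 and wholly below them in COX18, and COX11, a copper factor, was also wholly below at 6.46, 5.85 and 7.01 FPKM in R, TR and GR, against 7.38, 7.98 and 8.18 FPKM in Control, T and G. COX11 shares its strand with ENSG00000279059, whose counts came to 6.86% of its own. COX10 and COX15, which make haem A, had coefficients of 0.50 and 0.21. COX19, another copper factor, stood at 0.974, 1.54 and 3.25 FPKM in R, TR and GR, against 1.86, 3.85 and 2.31 FPKM in Control, T and G, with no common order. Its coefficient of -0.39 turned to 0.57 with the source name line as a term, a fit in which R rests on GR against G alone. ADAP1, which COX19 overlaps, held 11.7% as many counts. COX20, which binds MT-CO2, was at 0.322 to 1.80 FPKM, with a coefficient of 1.04 (SE 0.55), and COX16 had a coefficient of 0.37.

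Complex V, the ATP synthase, has a catalytic head in the matrix, a rotating ring of c subunits in the membrane, a peripheral stalk, and small membrane subunits that bend the membrane and join the enzyme into dimers. All 17 genes had R coefficients above 0 and 0 of 17 passed the test. The medians were 0.32 for the 5 subunits of the head, 0.60 for the 3 genes of the ring, 0.43 for the 4 of the stalk and 0.85 for the 5 small membrane subunits. These differences were not tested.

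ATP5F1B, the catalytic beta subunit, stood at 466, 463 and 362 FPKM in R, TR and GR, against 423, 304 and 288 FPKM in Control, T and G. Each R library lay above its own partner, with GR below Control. Its coefficient was 0.56 (SE 0.21, edgeR adjusted p 0.137). ATP5F1A, the alpha subunit that shares the catalytic sites, stood at 43.9, 37.6 and 30.5 FPKM in R, TR and GR, against 44.9, 37.7 and 28.8 FPKM in Control, T and G. ATP5F1C, the central gamma shaft, stood at 70.1, 65.5 and 57.6 FPKM in R, TR and GR, against 73.8, 50.7 and 55.4 FPKM in Control, T and G. Within each pair ATP5F1A was nearly level, with ratios of -0.03, -0.01 and 0.08 in R, TR and GR against Control, T and G. ATP5F1D, the delta subunit of the shaft, had a coefficient of 0.19, which turned to -0.010 with library totals, to -0.036 without T and to -0.035 without TR. ATP5F1E, the epsilon subunit beside it, stood at 11.4, 9.36 and 7.05 FPKM in R, TR and GR, against 6.65, 6.42 and 5.75 FPKM in Control, T and G, with no overlap.

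The ring is built from the same mature protein made by 3 genes. ATP5MC1 stood at 21.2, 19.0 and 14.5 FPKM in R, TR and GR, against 19.6, 8.58 and 15.0 FPKM in Control, T and G. ATP5MC2 stood at 57.7, 59.7 and 42.0 FPKM in R, TR and GR, against 54.2, 48.8 and 38.7 FPKM in Control, T and G. ATP5MC3 stood at 27.4, 26.6 and 21.1 FPKM in R, TR and GR, against 27.8, 14.1 and 16.8 FPKM in Control, T and G. T was the lowest library for ATP5MC1 and ATP5MC3, and the groups overlapped in all 3 genes. The 3 genes share coding sequence, so the division of reads between them is uncertain.

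Among the small membrane subunits, ATP5MK stood at 48.6, 47.6 and 37.9 FPKM in R, TR and GR, against 27.2, 29.9 and 27.3 FPKM in Control, T and G. ATP5ME stood at 7.95, 8.73 and 5.25 FPKM in R, TR and GR, against 5.06, 3.97 and 4.08 FPKM in Control, T and G. ATP5MF stood at 20.8, 19.1 and 14.1 FPKM in R, TR and GR, against 17.1, 6.75 and 12.3 FPKM in Control, T and G. The groups did not overlap in ATP5MK and ATP5ME, and in ATP5MF GR lay below Control. The coefficients were 0.86 (SE 0.23, edgeR adjusted p 0.0711) for ATP5MK, 0.91 (SE 0.31, adjusted p 0.115) for ATP5ME and 0.85 (SE 0.33, adjusted p 0.144) for ATP5MF. ATP5MG and ATP5MJ had coefficients of 0.61 and 0.59. In the stalk, ATP5PD and ATP5PF had coefficients of 0.71 and 0.65 with no overlap between groups, and ATP5PO, which caps the head, had 0.21. ATP5PB, the long b subunit of the stalk, stood at 60.2, 46.4 and 40.7 FPKM in R, TR and GR, against 55.9, 51.9 and 42.1 FPKM in Control, T and G, and its coefficient of 0.17 turned to -0.032 with library totals.

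Pair by pair, the 57 members that reached 1 FPKM in some library were compared with 13259 such genes. These pairs have 1 library on each side and no test. FPKM is scaled to library totals, so the ratios for R run lower than the TMM-scaled coefficients, and those for T and G run higher. The members' ratios were mostly above 0 in all 3 pairs, and the widest spread was in TR against T.

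In R against Control, 0 members were 2-fold higher and 0 were 2-fold lower, against 2.68% and 6.61% of all genes. In that pair 42 of 57 ratios were above 0, against 39.7% of all genes, with a median of 0.29 for the members and -0.13 for all genes. In TR against T, 9 members were 2-fold higher and 0 lower, against 5.67% and 11.2% of all genes. The 9 were SDHA, COX8A, UQCRQ, ATP5MF, COX7A2, COX6A1, UQCR10, COX6B1 and ATP5MC1, all subunits, with log2 ratios between 1.06 and 1.58. In that pair 47 of 57 ratios were above 0, against 40.8% of all genes, with medians of 0.49 for the members and -0.17 for all genes. In GR against G, 0 members were 2-fold higher and 0 lower, against 1.3% and 2.07% of all genes, 46 of 57 ratios were above 0, against 48.5%, and the medians were 0.25 and -0.01. Among genes with a mean of at least 5 FPKM the medians lay closer together. Those of 48 members were 0.31, 0.58 and 0.27 in R, TR and GR against Control, T and G. Those of all such genes were -0.01, 0.09 and 0.12. In TR against T, 9.43% of such genes were 2-fold higher and 8.33% lower.

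Ratios were above 0 in all 3 pairs for 35 of 57 members, against 22.4% of all genes, and below 0 in all 3 for 4 members, against 34.9% of all genes. The 4 were COX18, UQCC1, UQCC2 and COX11. Libraries with R lay wholly above those without R in 19 of 57 members, against 13.5% of all genes, and wholly below in the same 4, against 18.7% of all genes. Of the 19, 16 were among the 41 subunits and 3 among the 15 assembly factors, and all 4 of the opposite kind were assembly factors.

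Base composition and gene length moved with some pairs. Spearman's rho between GC content and the log2 ratio across 13259 genes, which are not independent replicates, was 0.04 for R against Control, 0.44 for TR against T and 0.47 for GR against G. It was -0.29 for T against Control, 0.59 for TR against R, -0.31 for G against Control and 0.11 for GR against R. The members' median GC content of 49.0% was close to that of all genes tested (49.3%), and their median length of 2894 bases was below that of all genes tested (4372 bases). With the trends over GC content and length removed, the median R coefficient of the members was 0.56, and the medians of the 3 pairs were 0.25, 0.42 and 0.26.

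**Figure D4:**
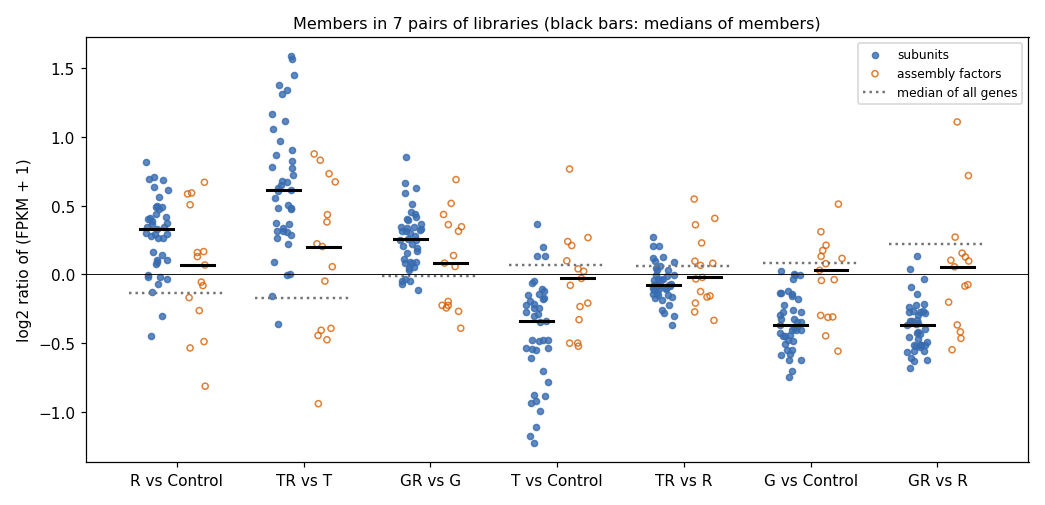
Log2 ratios of FPKM + 1 (y axis) of members in 7 pairs of libraries (x axis), 41 subunits as filled points and 15 assembly factors as open points (COX7A2L is not drawn). Black bars are medians of the members drawn and dotted lines medians of all genes. Subunits lie mostly above the dotted line in the 3 pairs for R and mostly below it in the pairs for T and G.

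T was compared with its absence in 2 backgrounds, T against Control and TR against R. Members tended to be lower in T, most of all in SDHA, ATP5MC1 and ATP5MF without R. In T against Control 0 members were 2-fold higher and 3 lower (SDHA at -1.17, ATP5MC1 at -1.11 and ATP5MF at -1.22), against 2.4% and 2.3% of all genes. In TR against R 0 were higher and 0 lower, against 0.46% and 0.385% of all genes, and the same 3 genes had log2 ratios of -0.08, -0.15 and -0.11. The medians were -0.24 in T against Control (all genes 0.07) and -0.08 in TR against R (all genes 0.06). At a mean of at least 5 FPKM they were -0.32 (all such genes -0.06) and -0.08 (all such genes 0.07). The TR against R median was -0.16 with median-ratio scaling and -0.013 with the trends over GC content and length removed, with 23 of 57 ratios above 0. Ratios were below 0 in both pairs for 33 of 57 members, against 14.7% of all genes. Whether the T ratios differ with and without R was not tested. The low values of the T library enter T against Control and TR against T alike, so those comparisons are not independent.

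Across both backgrounds edgeR called 0 of 58 members for T (0.00478% of all genes were called), and 0 had an unadjusted p under 0.05, against 2.65% of all genes higher and 1.02% lower. DESeq2 called 0, with 3 at an unadjusted p under 0.05, against 4.78% of all genes. The T coefficient was below 0 in 51 of 58 members, against 48.5% of all genes, with a median of -0.29 for the members and 0.02 for all genes. With library totals 46 of 58 were below 0, with a median of -0.18. The median was -0.09 without T, with 17 of 58 above 0, and -0.48 without TR. Without TR 15 members were lower at an unadjusted p under 0.05, against 4.49% of all genes, and 1 was higher.

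G, compared in G against Control and GR against R, went with lower values over more of the members. In G against Control 0 members were 2-fold higher and 0 lower, against 3.27% and 0.453% of all genes, and the median was -0.31 (all genes 0.08). In GR against R 1 member, COX19, was 2-fold higher and 0 lower, against 6.21% and 1.09% of all genes, and the median was -0.34 (all genes 0.22). At a mean of at least 5 FPKM the median was -0.35 in G against Control (all such genes -0.05). It was -0.36 in GR against R (all such genes 0.09). With median-ratio scaling COX19 was not 2-fold and 1 member, COX6B1, was 2-fold lower, against 2.86% of all genes. Ratios were below 0 in both pairs for 43 of 57 members, against 18.8% of all genes. All 10 complex IV subunits and all 17 complex V genes were below 0 in GR against R (32.4% of all genes), and 10 and 16 of them in G against Control (41.6% of all genes).

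Across both backgrounds edgeR called 0 of 58 members for G (0.0335% of all genes were called, 0.0239% higher and 0.00956% lower), while 19 were lower at an unadjusted p under 0.05, against 4.53% of all genes. The count lower was 0 without GR (1.01% of all genes), 7 without Control (3.15%) and 1 with library totals (1.11%). It was 9 with the source name line as a term (2.83%), 11 without G (3.09%), 32 without T (5.73%) and 32 without TR (5.38%). DESeq2 called 0, with 29 lower at an unadjusted p under 0.05, against 6.3% of all genes lower. The G coefficient was below 0 in 55 of 58 members, against 44.8% of all genes, with a median of -0.61 for the members and 0.09 for all genes. By complex the medians were -0.58, -0.47, -0.61 and -0.72 for complexes II, III, IV and V. COX17 (-0.94), COX6B1 (-0.92) and ATP5F1A (-0.87) had the lowest coefficients. With library totals 49 of 58 were below 0, with a median of -0.33, and the median of all genes was 0.37.

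Subunits of the same complexes that mitochondrial DNA encodes went the opposite way from the nuclear subunits with R. All 6 genes (MT-CYB, MT-CO1, MT-CO2, MT-CO3, MT-ATP6 and MT-ATP8) fell in the edgeR fit, with adjusted p-values of at most 0.00328. Their median coefficient was -5.04, with values from -6.34 for MT-CO3 to -3.62 for MT-CYB. MT-CO1, the catalytic subunit of complex IV, stood at 166, 192 and 320 FPKM in R, TR and GR, against 11184, 7268 and 9018 FPKM in Control, T and G. The 10 nuclear complex IV subunits, which surround it, had ratios between 0.07 and 1.56 in the same pairs.

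**Figure D5:**
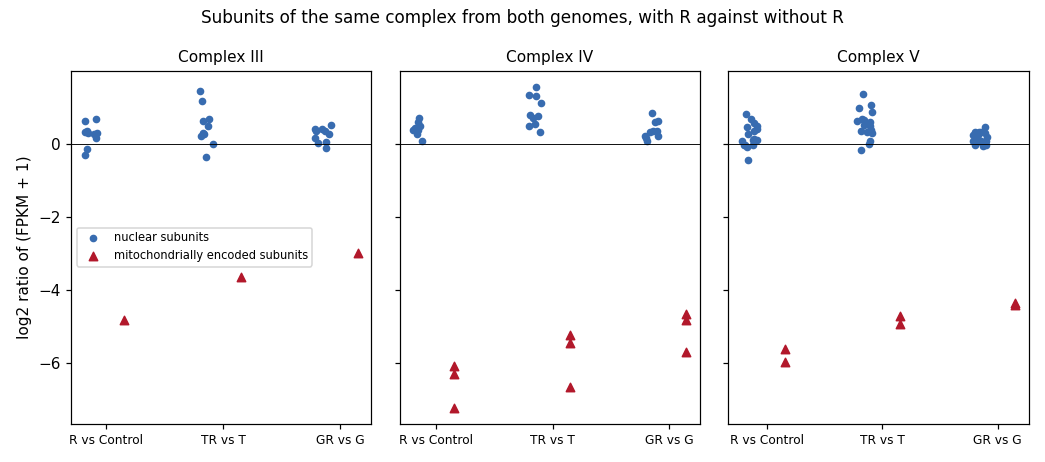
Log2 ratio of FPKM + 1 (y axis) in the 3 pairs with R against without R (x axis) for nuclear (circles) and mitochondrially encoded (triangles) subunits of complexes III, IV and V; each point is 1 gene. Nuclear points lie between -0.44 and 1.56, and mitochondrially encoded points lie below -2.

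Other genes of the pathway, outside the rule, were mostly not called for R. Among 25 assembly and accessory factors of complex IV, 0 were called higher and 2 lower, against 1.19% and 1.31% of all genes tested. The same shares stand beside the counts called in each list below. FASTKD1, a mitochondrial RNA-binding protein, fell by 1.57 on the log2 scale (SE 0.31, edgeR adjusted p 0.0466), at 0.994, 0.800 and 2.28 FPKM in R, TR and GR, against 3.24, 4.95 and 4.55 FPKM in Control, T and G. FASTKD2, a relative that binds mitochondrial RNA, fell by 1.12 (SE 0.23, edgeR adjusted p 0.0495), at 1.98, 1.92 and 3.36 FPKM in R, TR and GR, against 5.64, 5.96 and 5.88 FPKM in Control, T and G. The median of the 25 was 0.26. COA7, a complex IV assembly factor, had a coefficient of -1.46 with an edgeR adjusted p of 0.0609.

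The 4 complex II assembly factors had a median of 0.49, the 6 genes of complex III assembly and cytochrome c -0.14, and the 7 of complex V assembly and regulation -0.0015, with 0 called in each. Single members stood far from these medians. LYRM7, which loads the Rieske protein in complex III, had a coefficient of -1.42 (edgeR adjusted p 0.0510), and ATP5IF1, the inhibitor of ATP hydrolysis by complex V, 0.99 (adjusted p 0.0646). Of the 13 citric acid cycle genes 0 were called, with a median of 0.17. CS, citrate synthase, stood at 0.17. Of the 3 carriers of ADP, ATP and phosphate that the table holds, 0 were called, with a median of 0.07. The 10 regulators of respiratory genes had a median of -0.02 and 0 were called. NRF1 stood at 0.34 and GABPA, the DNA-binding part of GABP, at -0.39.

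Levels differed widely between members. COX8A (422 FPKM), ATP5F1B (384 FPKM), COX6A1 (107 FPKM), UQCRH (104 FPKM) and CYC1 (102 FPKM) had the highest means over the 6 libraries, and COX8C and COX6B2 the lowest. COX6A1, UQCRH and CYC1 differ by less than the range of each over libraries. FPKM is per length, and the lengths implied by counts and FPKM run from 526 bases in COX8A to 13429 bases in UQCRB, so that the order of genes follows the authors' gene models as well. Within a gene, the ratio of the highest to the lowest library was 1.20 for ATP5PO and 5.59 for COX20.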

How the data were processed

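RNA from 6 libraries was measured, 1 per group, with groups taken from the sample titles. Oligo(dT)-selected mRNA was made into strand-marked paired-end libraries, per the labels. Per the submitters' processing notes, the tools included HISAT2 2.2.1, cutadapt 1.9, edgeR, DESeq2 and StringTie 2.1.6, with no roles stated. The sources used here give no genome build. All 59 members overlap their GENCODE v29 (GRCh38) coordinates, so the table's coordinates are printed as GRCh38. Counts are the authors' whole numbers per gene and FPKM the authors' values scaled to length and depth, both taken as deposited, and 0 columns of per-sample values were left unused. How reads of overlapping genes, near copies and pseudogenes were divided is not given, and 21 members overlap another gene on the same strand.

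An additive model (background T, G or neither, plus R) was fitted to the counts of all genes with edgeR 4.0.16 in R 4.3.3. It used the quasi-likelihood test, TMM scaling, filterByExpr and Benjamini-Hochberg adjustment, with 4 coefficients and 2 residual degrees of freedom. The SE printed with a coefficient is its absolute value divided by the square root of that test's F statistic. The fit was also run on simulated counts, where most 2-fold changes were not recovered. Pairs of libraries were compared by the log2 ratio of FPKM + 1 among genes with at least 1 FPKM in a library, with no test. DESeq2 1.42.0, other scalings, filters and pseudocounts, and leaving out each library were tried. No libraries were alike: the closest pair differed by a chi-square of 93.1 per degree of freedom. Intervals cover counting error only.

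The members and lists were chosen with earlier results of these data known. Genes named by rule are those called, the 10 highest and 10 lowest R coefficients with a mean FPKM of at least 5, 2-fold members of any pair, core subunits and isoform pairs, and from the other lists those called and at most 4 with the largest coefficient. Other members, UQCC3 and UQCC2 among them, and CS, NRF1 and GABPA were named after their values were seen. Some genes that the rule for the other lists takes in are not reported here.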

Additional observations from a re-analysis of the deposited data

How the results depend on the processing

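Each library is the only one of its group, so p-values rest on the additive model, and pairs of libraries have no error. Counts were low for some members: COX20 had 117 to 733 counts and a standard error of 0.55 for its R coefficient, UQCC5 had 198 to 304 counts and one of 0.35, and COX6B2 and COX8C were near 0 in every library. Pairing by replicate number was not possible because the groups share fewer than 2 replicate numbers. The background, which joins R, TR and GR to Control, T and G, is a term of the model. The count of members called for R was 1. It became 21 with DESeq2 (8.91% of all genes called higher) and 0 with library totals (chosen after seeing the data, 0.511%). It was also 0 with no filter (0.00297%), with no background term (0.818%) or with the source name line as a term (0.0867%). Leaving out 1 library gave 0 to 6 calls, with 6 without G, 5 without GR and 0 without each other library. Of all genes, 4.03% were called higher without G and 3.4% without GR, against 1.19% with all libraries. The share was 0.0699% without Control, 0.249% without R, 0.102% without T and 0.0833% without TR. The median R coefficient of 0.58 became 0.38 with library totals and 0.36 with the source name line, where it rests on GR against G alone. It was 0.72 without G or GR, 0.39 without T or TR and 0.63 without Control or R. When 1 library of an R pair is left out, the model fits its partner exactly, so the pair drops out of the fit of R. The values without either library of a pair therefore repeat each other, and they are counted separately below. COX8A, SDHA and UQCRQ passed the edgeR threshold without G and without GR. The counts for T and G stayed at 0 under every alternative run. With median-ratio scaling of the pairs, 1 member was 2-fold higher in R against Control (4.44% of all genes), 16 were higher in TR against T (10.3%) and 8 lower in T against Control (3.37%), and the medians were 0.51, 0.76 and -0.39 in these pairs, -0.51 in G against Control and -0.69 in GR against R. With a pseudocount of 5 the median was 0.34 in TR against T, -0.22 in G against Control and -0.27 in GR against R, and 0 members were 2-fold in T against Control and in GR against R. A pseudocount of 0.1 gave 5 members at 2-fold in T against Control and a median of -0.35 in G against Control. A mean of at least 5 FPKM gave -0.35 in G against Control and 0 members in GR against R. Removing GC and length trends gave -0.28 in G against Control and -0.25 in GR against R. Without mitochondrially encoded genes the shares were 0.695%, 0.673% and 0.551% in R, TR and GR, against 0.642%, 0.503% and 0.488% in Control, T and G. Of the named members' R coefficients, 417 values kept their side of the threshold and sign, 22 newly passed, 8 no longer passed (COX6A1 in each) and 9 turned sign without passing: UQCRC2 (-0.056 with library totals, -0.036 with the source name line, -0.039 to 0.24 with 1 library left out), ATP5F1D (-0.010 with library totals, -0.036 to 0.41 with 1 library left out), ATP5PB (-0.032 with library totals) and COX19 (0.57 with the source name line). The cause was not tested.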
